A study of Mus musculus with 2 samples.

Results

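The MHC class II genes were followed in the endothelial cells (ECs) of E0771 mammary tumors and of normal mammary glands. E0771 is a mouse mammary carcinoma line. The 5 members are a list of named genes with no threshold on a measured value: Cd74, H2-Aa, H2-Ab1, H2-Eb1 and Ciita, out of 14976 genes held by both tables. The series has 2 droplet single-cell RNA libraries, 1 of sorted CD45-/CD31+ cells from tumors (tumor ECs, TECs) and 1 of cells sorted the same way from pooled normal glands (normal ECs, NECs). The labels give strain C57BL/6 and an age of 6 to 8 weeks for the NEC library, and neither for the TEC library. The title of the NEC library names normal cells while its tissue and cell type labels name E0771 and TECs. Over all its barcodes, Rhox5 and Hmga2, which were abundant in part of the tumor library and were picked for that, were at 0.196 and 0.269 CPM, against 502 and 155 CPM in the TEC library. A UMI is a molecular tag that marks 1 captured RNA molecule, and a level in CPM is the UMIs of a gene in a set of cells, scaled to 1000000 UMIs of the same cells.

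Each table was cut to ECs by 1 rule: 200 or more genes, under 10% mitochondrial UMIs, no UMI of Ptprc (leukocytes), Myh11 or Cspg4 (mural cells) or Epcam (epithelium), and 1 or more UMIs of Cdh5 or Pecam1. The genes that remove cells are those the study removed cells by. TECs also needed more Cdh5 and Pecam1 UMIs than Rhox5, Hmga2 and Krt8 UMIs, a step that is not the study's and whose genes were chosen with their values in these data known. This left 4940 of 9047 barcodes as NECs and 261 of 704 as TECs, with a median of 2976.5 and 16989 UMIs per cell. Cdh5 and Pecam1, which define endothelium, were at 984 and 1174 CPM in NECs and at 1151 and 980.2 CPM in TECs. The libraries shared 3 cell barcodes, none of them between the NECs and TECs. With 1 library per condition, no test of the condition was possible. All intervals below are exact 95% intervals that cover counting error only, and a difference between TECs and NECs cannot be told apart from a difference between these 2 libraries.

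MHC class II molecules present peptides from taken-up protein to CD4+ T cells. An alpha and a beta chain pair in the endoplasmic reticulum around the invariant chain Cd74, which is degraded in endosomes until H2-DM exchanges its last fragment for a peptide. Dendritic cells, macrophages and B cells make them constitutively, and other cells, endothelium included, can make them when Ciita, the master coactivator of the class II genes, is induced by interferon-gamma. H2-Aa and H2-Ab1 encode the chains of I-A. H2-Eb1 encodes the beta chain of I-E, whose alpha chain gene is defective in C57BL/6 mice, so its RNA does not stand for a surface molecule there.

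Ciita acts through factors bound to a shared upstream module, the W/S, X and Y boxes. Upstream sequence was at hand for H2-Aa and H2-Eb1 of the 5 members and is shown because both genes carry this module; H2-Ab1, Ciita and Cd74 were not listed. Each line gives the last 120 bases before the RefSeq gene start (GRCm38.p6), 5′ to 3′ on the gene's own strand, at chr17:34287824-34287943 on the minus strand for H2-Aa and chr17:34305747-34305866 on the plus strand for H2-Eb1. Capitals mark a match to CNNGCAAC, letters found in the X box region, and to ATTGG, the core of the Y box, which is the reverse complement of CCAAT.
H2-Aa: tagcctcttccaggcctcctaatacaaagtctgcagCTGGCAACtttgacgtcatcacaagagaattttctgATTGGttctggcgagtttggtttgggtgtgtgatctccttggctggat
H2-Eb1: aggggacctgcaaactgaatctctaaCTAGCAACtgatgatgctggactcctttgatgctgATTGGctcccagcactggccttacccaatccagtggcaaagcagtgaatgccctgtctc
The matches began 84 and 48 bases before the start of H2-Aa and 94 and 59 bases before that of H2-Eb1, with 28 and 27 bases between them. The letters were chosen after these sequences were seen. In 250 upstream bases, searched on both strands, 9.26% of 32851 RefSeq windows held CNNGCAAC, 33.8% held ATTGG and 0.350% held both in this order and strand, 15 to 50 bases apart. Of 6 further class II genes with a listed window, H2-Oa, H2-Ob and H2-Eb2 held the pair, while H2-DMa, H2-DMb1 and H2-DMb2 did not hold these letters in this arrangement.

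All 5 members were at a higher level in TECs than in NECs. Cd74 was at 46.5 CPM in NECs (interval 43.3 to 49.8, 805 UMIs) and at 451 CPM in TECs (432 to 471, 2097 UMIs). H2-Aa was at 10.3 CPM in NECs (8.87 to 11.96) and at 69.95 CPM in TECs (62.6 to 78.0). H2-Ab1 was at 12.6 CPM in NECs (11.02 to 14.4) and at 167 CPM in TECs (156 to 179). The intervals of the 2 libraries lay apart for each of these chains. H2-Eb1 was at 8.20 CPM in NECs (6.90 to 9.66) and at 84.2 CPM in TECs (76.02 to 92.9). Ciita gave 9 UMIs in all NECs, 0.519 CPM (0.238 to 0.986), and 24 UMIs in TECs, 5.17 CPM (3.31 to 7.69). As ratios of CPM, TECs over NECs, these were 9.72-fold for Cd74 (8.95 to 10.6), 6.77-fold for H2-Aa (5.62 to 8.17), 13.2-fold for H2-Ab1 (11.4 to 15.4), 10.3-fold for H2-Eb1 (8.45 to 12.5) and 9.95-fold for Ciita (4.46 to 24.3). Of 12230 genes with 20 or more UMIs in the 2 groups together, 10.8% were 2-fold or more higher in TECs and 3.79% were 4-fold or more higher, which held for 5 of the 5 members. The median log2 ratio over 9414 genes with 20 or more UMIs in each group was -0.06.

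**Figure D1:**
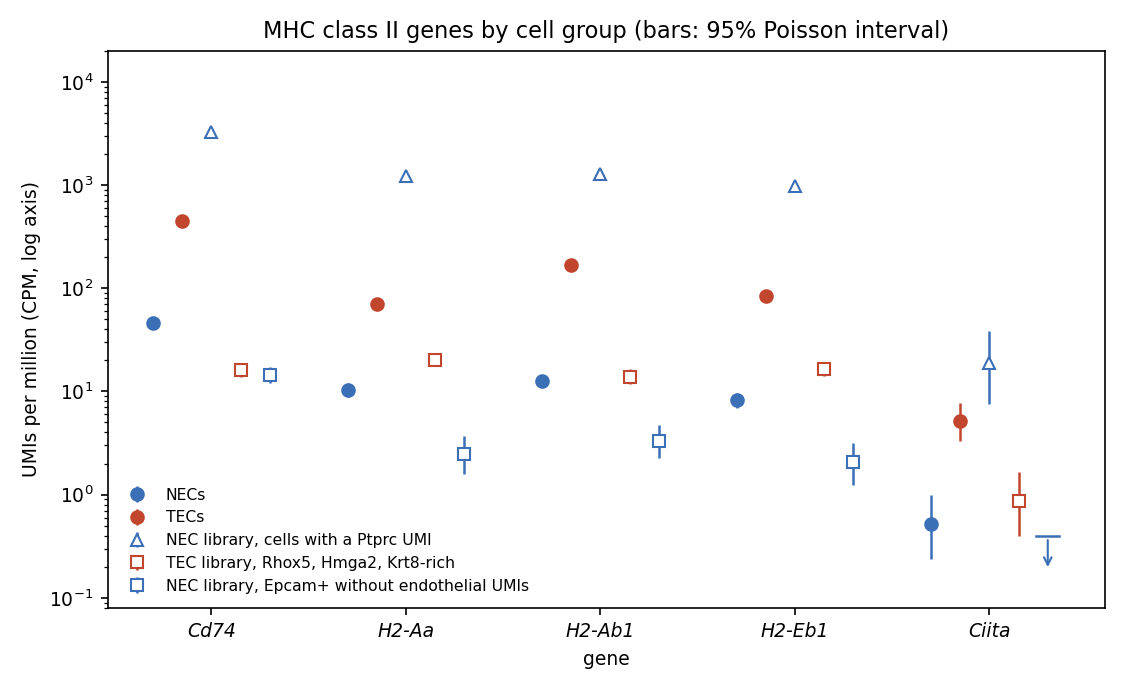
CPM of the 5 members (log axis) in NECs and TECs (filled circles) and in other cells of the same libraries (open symbols), with exact 95% Poisson intervals; an arrow marks the upper limit of a count of 0. TECs lie above NECs for every member, and cells of the NEC library with a Ptprc UMI lie above both.

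The share of ECs in which class II RNA was seen depended on depth, so cells were also thinned to 2000 UMIs each, which left out 1214 NECs and 23 TECs as too shallow. At that depth, 2 or more of Cd74, H2-Aa, H2-Ab1 and H2-Eb1 were detected in 40 of 3726 NECs, 1.07% (0.768 to 1.46), and in 43 of 238 TECs, 18.1% (13.4 to 23.6). Without thinning the shares were 1.62% and 44.8%. As a reference, no Myh11 or Cspg4 cell of the NEC library without Ptprc, Cdh5, Pecam1 or Epcam UMIs held 2 of these genes after thinning (0 of 179, interval up to 2.04%), and 5 of 681 Epcam cells without Ptprc, Cdh5 or Pecam1 UMIs did, 0.734% (0.239 to 1.71). In the TEC library, 5 of 169 cells with more UMIs of Rhox5, Hmga2 and Krt8 than of Cdh5 and Pecam1 did, 2.96% (0.967 to 6.77). The interval of the NECs overlaps those of the reference cells of their library, and that of the TECs lies above that of theirs. Single genes had the same order at equal depth: Cd74 was detected in 2.07% of NECs and 29.8% of TECs. In TECs the genes were found together. Of 19 TECs with a Ciita UMI, 18 also held a UMI of the other members, against 150 of 242 TECs without one. The first were deeper (median 27651 against 16307.5 UMIs). Of 8 NECs with a Ciita UMI, 2 held a UMI of the other members, against 227 of 4932 NECs without one. Here too the first were deeper (median 6258 against 2973.5 UMIs). Over 238 thinned TECs, Cd74 and the summed H2 genes had a Spearman rho of 0.62, against 0.36 over 3726 NECs; these cells share a library and most hold few class II UMIs.

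The class II UMIs of NECs lay in few cells. Summed over Cd74, H2-Aa, H2-Ab1 and H2-Eb1, which is called the class II sum here, NECs held 1345 UMIs (77.6 CPM) and TECs 3590 UMIs (773 CPM). In NECs, 4711 of 4940 cells held no such UMI and 30 cells with 10 or more held 893 of the UMIs. The 49 highest NECs, 1% of the cells, held 76.5% of the class II UMIs. In TECs, 93 of 261 cells held none, 75 held 10 or more, and the highest 10% of cells held 65.2%. Of the 49 highest NECs, 24 belonged to an 89-cell cluster of high endothelial venule genes, 10 to a venous-like cluster and 9 to a 108-cell cluster with venous genes. In 35 of these 49 cells there was no UMI of the 5 leukocyte genes Cd52, Laptm5, Coro1a, Rac2 and Cd53 or of the 3 B cell genes Cd79a, Cd79b and Ms4a1. The other 14, 28.6%, held such a UMI, against 55 of the 4891 other NECs, 1.12%, which were shallower (median 2961 against 7853 UMIs).

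**Figure D2:**
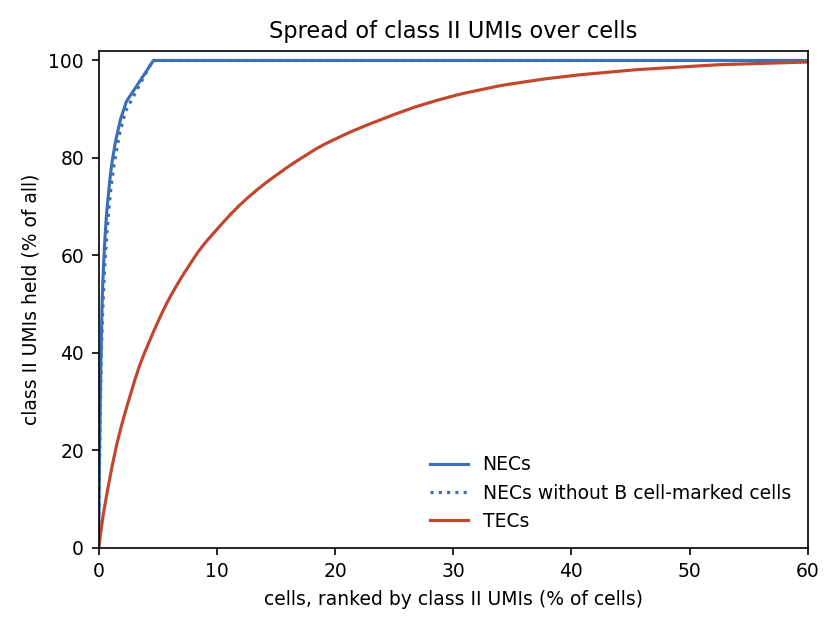
Share of all class II UMIs (y axis, %) held by the highest-ranked cells (x axis, % of cells, drawn to 60%), for NECs with and without 4 B cell-marked cells and for TECs. The NEC curve ends at the 229 cells with a class II UMI, 4.64% of NECs, while the TEC curve climbs over 64.4% of the cells.

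Of the 49 cells, 4 carried 3 or more UMIs of the B cell genes and are called B cell-marked. They held 264 of the 1345 class II UMIs of NECs (19.6%), with 94, 78, 57 and 35 UMIs, next to 1, 1, 11 and 14 UMIs of Cdh5 and Pecam1. No TEC was B cell-marked. The limit was set after these cells were seen, so values are given with and without them where they count. Without them the ratio of TECs over NECs was 11.6-fold for Cd74, 8.90-fold for H2-Aa, 18.1-fold for H2-Ab1, 13.4-fold for H2-Eb1 and 12.8-fold for Ciita.

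Leukocytes are the usual source of class II RNA, and each library still held cells with a UMI of the leukocyte gene Ptprc. In the NEC library, 51 cells had a Ptprc UMI, and 28 of these also had a Cdh5 or Pecam1 UMI. Their class II sum was 6728 CPM (6466 to 6997), 86.7 times that of NECs, with Cd74 at 3241 CPM, H2-Aa at 1215, H2-Ab1 at 1285, H2-Eb1 at 986 and Ciita at 18.9 CPM. In the TEC library, the 9 cells with a Ptprc UMI, 7 of which had a Cdh5 or Pecam1 UMI, held 4 class II UMIs in all, 9.76 CPM (2.66 to 24.98), with Cd74 and Ciita at 0. The 2 without held no UMI of the 5 leukocyte genes. Over all 9, Lyz2, Csf1r, Cd3e, Cd79a and Ms4a1 were at 0. The macrophage list gene Tyrobp was at 26.8 CPM and the T cell gene Cd3d at 4.88 CPM in them. These values do not settle whether the 9 cells are leukocytes. TECs were 79.2-fold (30.9 to 291) above the Ptprc cells of their own library. The 5 leukocyte genes together were at 5.598 CPM in NECs, 18.1 CPM in TECs, 2013 CPM in the Ptprc cells of the NEC library and 56.1 CPM in those of the TEC library. In TECs the highest of them was Coro1a at 12.3 CPM. For 1 UMI of these genes, the Ptprc cells of the NEC library held 3.34 class II UMIs (3.08 to 3.63), NECs 13.9 (11.3 to 17.2) and TECs 42.7 (34.4 to 53.7). The B cell-marked NECs held 10.56 (6.997 to 16.6), which overlaps the interval of all NECs and lies below that of TECs. The Ptprc cells were picked for a leukocyte gene, while NECs and TECs were cut to cells without it.

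Other immune genes were counted in both groups. The 7 B cell genes Cd79a, Cd79b, Ms4a1, Ly6d, Ighm, Igkc and Fcmr summed to 40.6 CPM in NECs, of which Ly6d made up 26.6. In TECs they summed to 4.95 CPM, with Ms4a1 and Ly6d at 0. The full B cell list was at 2546 CPM in Epcam cells without Ptprc, Cdh5 or Pecam1 UMIs. Those cells held only 3 UMIs of Cd79a, Cd79b and Ms4a1, so the list sum does not stand for B cell RNA alone. The 6 T cell genes summed to 3.46 CPM in NECs and 10.1 CPM in TECs, where Lck made up 9.69 and Cd3e, Cd3g and Cd2 were at 0. The 8 macrophage genes summed to 15.2 and 18.5 CPM, with Csf1r and Adgre1 at 0 in TECs. The 7 dendritic cell genes, of which each library listed 6, summed to 53.4 and 15.3 CPM, of which Zbtb46 made up 52.1 and 14.4. Itgax gave no UMI in NECs, and Xcr1 was not among the genes listed for the NEC library. No UMI of either was found in TECs. The part of leukocyte RNA in the class II levels was not tested beyond these values.

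Normal vessel types differed widely. The 4940 NECs formed 16 clusters, made without the members and the pathway genes, and 8 of the clusters met the marker rule for a name. High endothelial venules (HEVs) are the cuboidal venules through which lymphocytes enter lymph nodes. An HEV-like cluster of 89 cells, led by Glycam1, Serpina1e, Ccl21a and Fut7, had the highest class II sum of the NEC clusters, 739.8 CPM (679.7 to 804), with a class II UMI in 49 cells (55.1%). In it Cd74 was at 529 CPM, H2-Aa at 70.1, H2-Ab1 at 91.3, H2-Eb1 at 49.0 and Ciita at 1.32 CPM, the last from 1 UMI. Its class II sum was 15.6-fold (14.0 to 17.4) that of all other NECs, 47.4 CPM. Of 12092 genes with 20 or more UMIs in NECs, 2.03% were 4-fold or more higher there than in the other NECs, as were Cd74, H2-Aa, H2-Ab1 and H2-Eb1. None of its cells was B cell-marked, none held a UMI of the 3 B cell genes, and its 5 leukocyte genes were at 38.4 CPM, against 4.10 CPM in the other NECs, with 26 of the 29 UMIs from Coro1a. It held 19.3 class II UMIs (13.3 to 29.1) for 1 leukocyte gene UMI, above the 3.34 of Ptprc cells. The B cell-marked NECs were at 10.56 (6.997 to 16.6), an interval that overlaps that of the HEV-like cells. Epcam cells without Ptprc, Cdh5 or Pecam1 UMIs were at 34.5 (15.6 to 95.1). Whether this measure separates leukocyte RNA from endothelial RNA was not tested. Without the 49 highest NECs, the class II sum of HEV-like cells was 7.43-fold that of the other NECs.

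Next came a cluster of 108 cells with Htr2b and Gria3 among its leading genes and 6 venous list genes higher, among them Nr2f2 and Vwf, but without a name since none of them was among its 10 leading genes. Its class II sum was 342 CPM (291 to 401), or 272 CPM (226 to 325) without its 1 B cell-marked cell, and its leukocyte genes were at 30.9 CPM, with Cd53 at 8 UMIs. The venous-like cluster (341 cells, led by Selp and Ackr1) was at 170.0 CPM (151 to 191), with Cd74 at 92.2, H2-Aa at 26.3, H2-Ab1 at 27.5 and H2-Eb1 at 23.9 CPM. It was at 113.9 CPM (98.3 to 131) without 1 B cell-marked cell of 94 class II UMIs. The ratio of the venous-like cells over all other NECs was 2.51-fold (2.19 to 2.86), 2.00-fold without the B cell-marked cells, and 5.05-fold with HEV-like cells left out of the others. Of 12092 genes, 4.54% were 2-fold or more higher in venous-like cells, as were Cd74, H2-Aa, H2-Ab1 and H2-Eb1. Without the B cell-marked cells this no longer held for Cd74, at 1.74-fold (1.40 to 2.15), or H2-Ab1, at 1.99-fold (1.27 to 3.01), while H2-Aa was at 2.43-fold (1.54 to 3.71) and H2-Eb1 at 3.24-fold (2.03 to 5.04). When cells were instead sorted by their marker genes with no clustering, 1159 cells counted as venous and the ratio was 0.826-fold, the other way. With cells of under 5% mitochondrial UMIs it was 1.30-fold. The venous value thus hung on how the cells were drawn.

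Arterial and capillary cells held little class II RNA. The arterial-like cluster (455 cells, led by Gja5 and Bmx) held 12 class II UMIs in 11 cells, 9.10 CPM (4.70 to 15.9), of which 4 were Cd74 and 8 were H2-Ab1. H2-Aa and H2-Eb1 were at 0 UMIs in arterial-like cells, where 3 UMIs would be 2.27 CPM. The 1747 capillary-like cells, in 3 clusters led by Car8, Gpr160 and the stress gene Hspa1a, were at 40.0 CPM (34.2 to 46.5), but at 8.06 CPM (5.58 to 11.3) without 2 B cell-marked cells, which held 78 and 57 class II UMIs. The arterial-like and the remaining capillary-like cells did not differ beyond their intervals. The 13 clusters other than the HEV-like, the venous-like and the Htr2b cluster ranged from 2.25 to 64.0 CPM with a median of 9.61 CPM. Without the B cell-marked cells the highest of them, a capillary-like cluster, was at 13.6 CPM, and the 13 ranged from 2.25 to 44.4 CPM with a median of 9.10 CPM. Taken as 1 group of 4402 cells they were at 24.0 CPM, against 22.3 CPM in the 698 Epcam cells without endothelial UMIs, a ratio of 1.08 (0.903 to 1.28). Without the 2 B cell-marked cells among them they were at 14.7 CPM, a ratio of 0.658 (0.541 to 0.8005). One cluster of 106 cells, led by the salivary gland genes Smr3a and Bpifa2, was shallow (median 774.5 UMIs) and held 1 class II UMI. In a mural-like cluster of 46 cells there were 3.

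**Figure D3:**
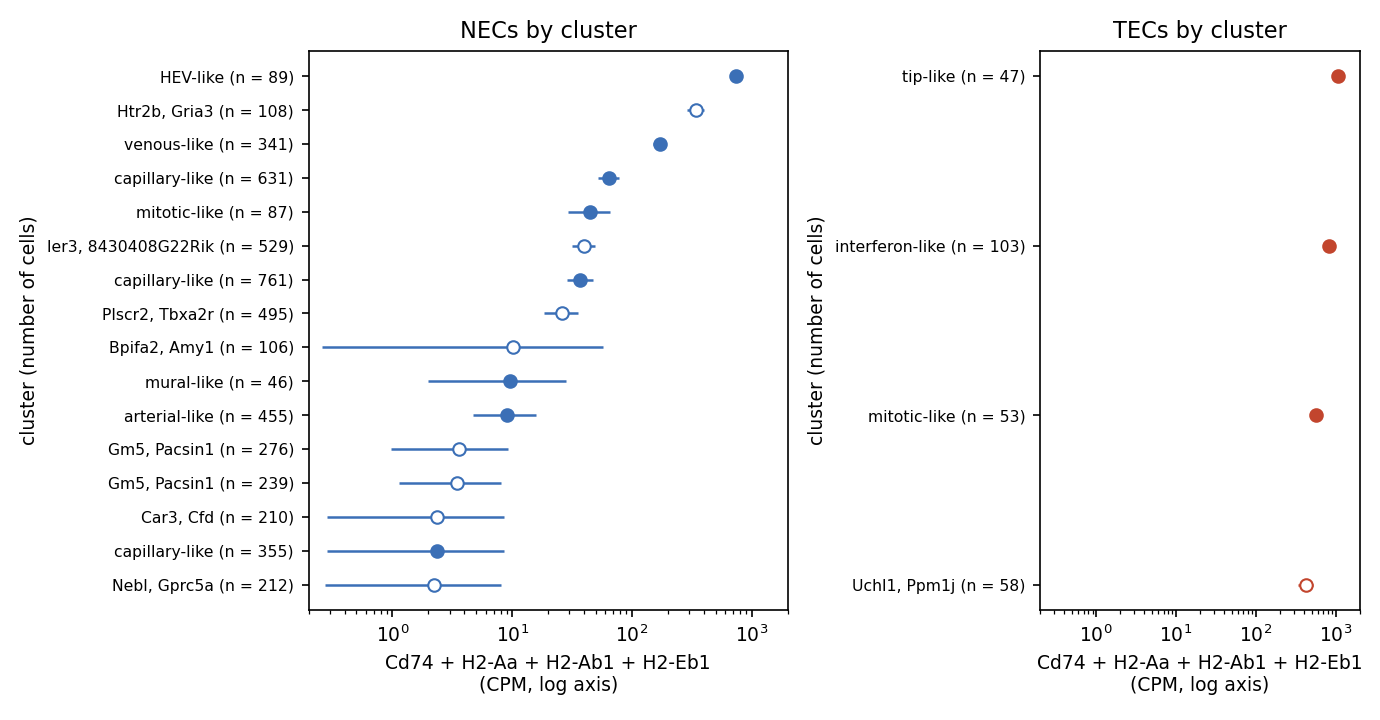
Class II sum (CPM, log axis) in each cluster of NECs (left, 16 clusters) and TECs (right, 4 clusters), with exact 95% Poisson intervals; open circles are clusters without a name, given by 2 of their leading genes. HEV-like cells are the highest NEC cluster at 739.8 CPM, and the TEC clusters lie between 423 and 1065 CPM.

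The 261 TECs formed 4 clusters, and each was above the NEC clusters other than the HEV-like one, although the interval of the lowest overlapped that of the Htr2b cluster. A tip-like cluster of 47 cells was named from 6 tip list genes, of which Pgf and Adm were among its 10 leading genes and Esm1 and Angpt2 were not. Egln3, Ankrd37 and Bnip3, genes known to be induced by hypoxia, as Adm is, were also among the 10. The cluster was at 1065 CPM (1004 to 1129.8), with Cd74 at 683, H2-Aa at 77.1, H2-Ab1 at 195, H2-Eb1 at 110.5 and Ciita at 4.76 CPM. An interferon-like cluster of 103 cells, led by Cxcl10, Ms4a6b and Rsad2, was at 822 CPM (781 to 865), with Cd74 at 447, H2-Aa at 82.9, H2-Ab1 at 199, H2-Eb1 at 92.8 and Ciita at 7.09 CPM. A mitotic-like cluster of 53 cells was at 562 CPM (525 to 600.2). The fourth, of 58 cells without a name and with a median of 2208.5 UMIs, was at 423 CPM (336 to 525) with Ciita at 0 UMIs, where 3 UMIs would be 15.7 CPM.

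The tip-like and interferon-like TECs differed in Cd74 more than in the chains. The class II sum was 1.30-fold (1.198 to 1.40) higher in tip-like cells and Cd74 1.53-fold (1.38 to 1.69), while H2-Aa at 0.930-fold (0.701 to 1.23), H2-Ab1 at 0.980-fold (0.822 to 1.17) and H2-Eb1 at 1.19-fold (0.932 to 1.52) had intervals that span 1. Against mitotic-like cells, the sum was 1.90-fold (1.73 to 2.07) in tip-like and 1.46-fold (1.35 to 1.59) in interferon-like cells. Single cells weighed on these values in each cluster. The highest 2 tip-like cells held 27.4% of that cluster's class II UMIs, and the highest 5 interferon-like cells 33.3% of theirs. The highest 2 mitotic-like cells held 48.9%, and 1 of them held 244 of that cluster's 883 class II UMIs. At 2000 UMIs per cell, 2 or more of the 4 genes were seen in 25.5% of tip-like (13.9 to 40.3), 25.2% of interferon-like (17.2 to 34.8) and 13.2% of mitotic-like TECs (5.48 to 25.3), whose intervals overlap. Dividing cells existed in both libraries, and the mitotic-like TECs were 12.7-fold (8.58 to 19.5) above the 87 mitotic-like NECs, at 44.4 CPM. Those NECs held their 26 class II UMIs in 4 cells. For 1 UMI of the 5 leukocyte genes they held 2.89 class II UMIs (1.31 to 7.01), next to 3.34 in the Ptprc cells of their library. Their macrophage genes were at 61.4 CPM, against 15.2 CPM in all NECs. The part of leukocyte RNA in their class II level was not tested.

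TECs as a whole and HEV-like NECs had class II sums of like size in different make-up. The ratio of TECs over HEV-like NECs was 1.04-fold (0.955 to 1.14) for the sum, 0.853-fold (0.766 to 0.951) for Cd74, 0.997-fold (0.744 to 1.36) for H2-Aa, 1.83-fold (1.43 to 2.38) for H2-Ab1 and 1.72-fold (1.23 to 2.48) for H2-Eb1. The 2 sets of cells come from different libraries. Cd74 made up 71.6% (67.6 to 75.3) of the class II UMIs of HEV-like NECs, 68.4% (60.4 to 75.6) of those of the Htr2b cluster and 58.4% (56.8 to 60.0) of those of TECs. In the Ptprc cells of the NEC library Cd74 made up 48.2% (46.2 to 50.2), and in the B cell-marked NECs 48.9% (42.7 to 55.1). The HEV-like interval lay above that of the Ptprc cells. The 4402 NECs of the 13 low clusters were at 41.8% (36.5 to 47.2) and the Epcam cells at 64.7% (57.8 to 71.2).

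Cells of the tumor library rich in Rhox5, Hmga2 and Krt8 gave a further reference, and 27.3% of them held a Cdh5 or Pecam1 UMI. In 183 cells with more Rhox5, Hmga2 and Krt8 than Cdh5 and Pecam1 UMIs, the class II sum was 66.8 CPM (61.9 to 72.0), and TECs were 11.6-fold (10.7 to 12.6) above it. Their make-up was turned round: Cd74 held 24.2% (21.1 to 27.6) and H2-Aa 30.3% (26.9 to 33.9), against 9.05% for H2-Aa in TECs. TECs were 27.9-fold above these cells for Cd74, 11.99-fold for H2-Ab1, 5.11-fold for H2-Eb1 and 3.46-fold for H2-Aa. Of these 183 cells, 67 held a class II UMI and the 10 highest held 78.8% of the 690 UMIs. When TECs were chosen without the comparison with these 3 genes, TECs over NECs were 5.22-fold for Cd74 and 3.78-fold for H2-Aa.

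**Figure D4:**
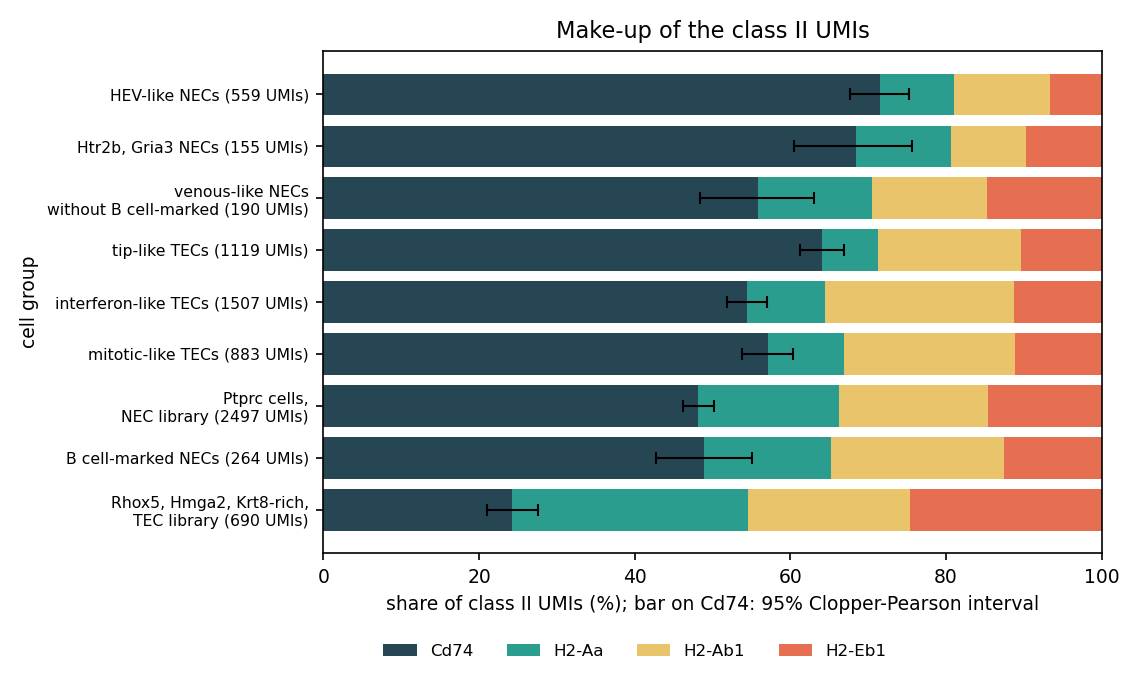
Share of the class II UMIs (x axis, %) from Cd74, H2-Aa, H2-Ab1 and H2-Eb1 in groups of cells of both libraries, with the exact 95% interval of the Cd74 share. Of the groups drawn, Cd74 makes up the largest share of class II UMIs in HEV-like NECs, 71.6%, and the smallest in the Rhox5, Hmga2 and Krt8-rich cells of the TEC library, 24.2%.

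The members lie on 3 chromosomes of GRCm38 (GENCODE M21). H2-Ab1 (chromosome 17, 34257689 to 34269419), H2-Aa (34282744 to 34287823) and H2-Eb1 (34305867 to 34316674) are neighbours in the MHC, while Cd74 is at 60803848 to 60812652 of chromosome 18 and Ciita at 10480059 to 10528418 of chromosome 16.

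The other genes of the pathway followed the members in part. H2-DM, which loads peptide, is encoded by H2-DMa and H2-DMb genes. H2-DMa was at 2.25 CPM in NECs and 24.5 CPM in TECs, 10.9-fold (7.52 to 16.1), and H2-DMb1 at 1.85 and 62.4 CPM, 33.8-fold (23.4 to 50.3). In HEV-like NECs H2-DMa was at 5.29 and H2-DMb1 at 11.9 CPM. H2-Ob, a chain of the H2-DM inhibitor H2-O, gave 22 UMIs in NECs and 2 in TECs, 0.339-fold (0.0386 to 1.38), and H2-DMb2 gave 11 and 0. Of the 3 genes of this group with 20 or more UMIs, 2 were 2-fold or more higher in TECs and 1 was 2-fold or more lower, next to 10.8% and 24.5% of all genes tested.

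The DNA-bound partners of Ciita had counts near the shares of all genes. Of the RFX, NF-Y and CREB genes, 0 of 7 were 2-fold or more higher in TECs and 1 was 2-fold or more lower, next to 10.8% and 24.5% of all genes tested, with a median log2 ratio of -0.83 beside -0.20 over all genes tested. Rfxap was at 58.7 CPM in NECs and 31.0 in TECs, Creb1 at 58.2 and 26.5, Nfyb at 49.7 and 34.4, and Nfya at 29.8 and 15.5 CPM. Among the proteases that process antigen and the invariant chain, 1 of 3 was 2-fold or more higher, next to 10.8% of all genes tested. This was Lgmn, the asparaginyl endopeptidase, at 46.9 CPM in NECs and 285 in TECs, 6.07-fold (5.56 to 6.63). Ctsl, cathepsin L, was at 496 and 878 CPM, and Ctss, cathepsin S, at 3.06 and 4.52 CPM. Ctss reached 33.1 CPM in HEV-like NECs and 44.2 CPM in the Htr2b cluster. March8, an E3 ligase that can remove class II from the surface, was at 24.1 and 22.0 CPM, and March1 gave 3 and 1 UMIs.

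Costimulators, which T cells need beside the class II signal, were counted rarely or unevenly. Cd80 gave no UMI in TECs and was not among the genes listed for the NEC library, and Cd86 gave 3 in NECs and 0 in TECs. Cd40 was at 5.14 CPM in NECs and 26.9 in TECs, 5.24-fold (3.96 to 6.95), with 44.7 CPM in interferon-like and 9.52 CPM in tip-like TECs. Icosl gave 46 UMIs in NECs and 0 in TECs, a ratio whose interval reached up to 0.311-fold. Of the 8 genes of interferon-gamma sensing, 3 were 2-fold or more higher and 2 were 2-fold or more lower, next to 10.8% and 24.5% of all genes tested, from a log2 ratio of -2.23 to 1.96. Gbp2, a guanylate-binding protein induced by interferon-gamma, was at 118 CPM in NECs and 459 in TECs, whereas Irf1, a transcription factor of the same response, was at 609 and 129.8 CPM. Ifngr1, a receptor chain, was at 229.6 and 119.9 CPM, and the kinase Jak1 at 254 and 215 CPM. In the interferon-like TECs Gbp2 was at 655 CPM and in HEV-like NECs at 63.5 CPM.

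Class I genes, which every nucleated cell expresses, differed less than class II. Of 6 genes, 5 were 2-fold or more higher in TECs, next to 10.8% of all genes tested, with a median log2 ratio of 1.10. B2m was at 3233 CPM in NECs and 5017 in TECs, 1.55-fold (1.53 to 1.58), H2-D1 at 2848 and 5930.4, 2.08-fold (2.05 to 2.11), H2-K1 at 2276 and 5037, 2.21-fold (2.18 to 2.25), and Psmb8, an immunoproteasome subunit, at 406 and 834 CPM. H2-K1 and H2-D1 are alike in sequence, so that reads may have been split between them.

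**Figure D5:**
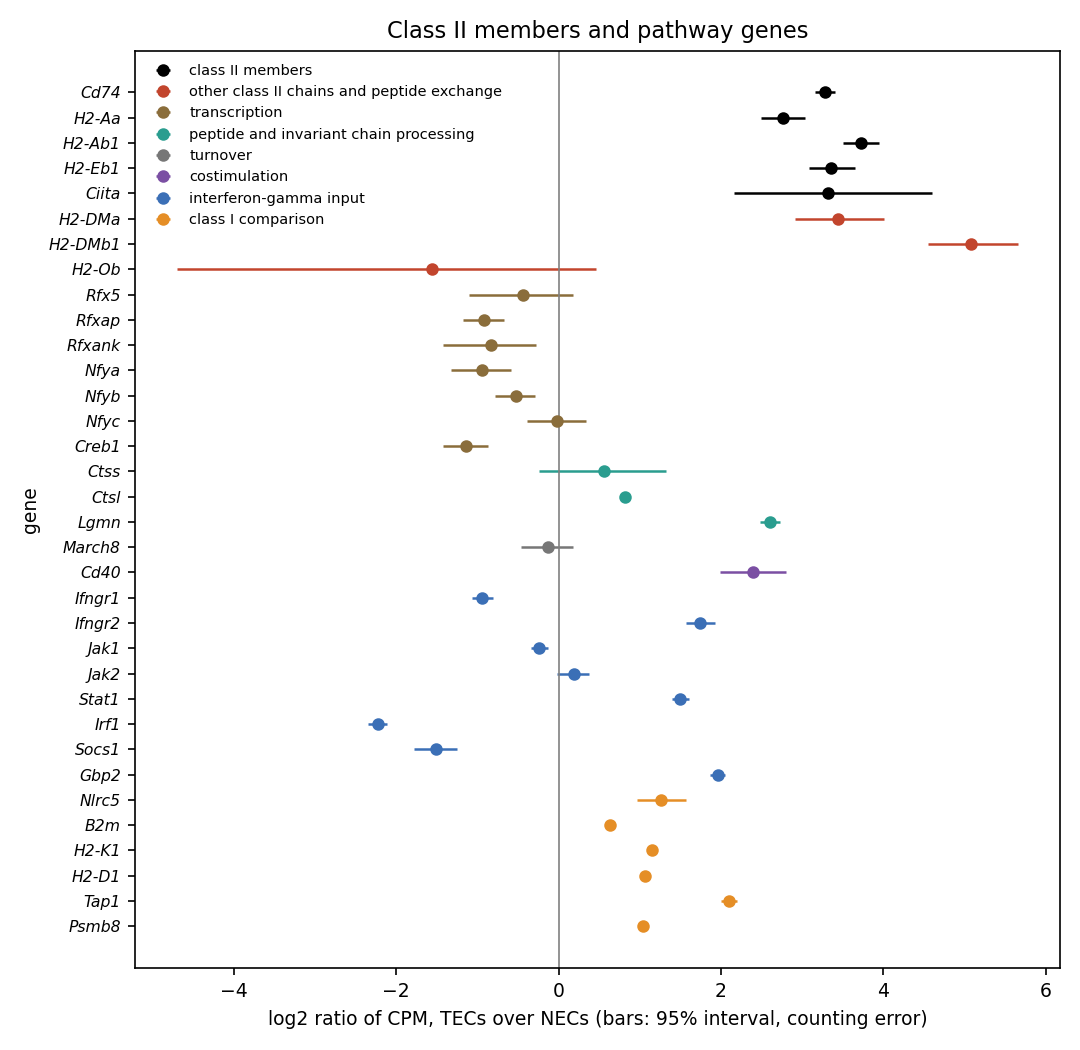
Log2 ratio of CPM, TECs over NECs, for the 5 members and the pathway genes with 20 or more UMIs and at least 1 in TECs, coloured by group, with exact 95% intervals. The members and both H2-DM genes lie right of 2, the transcription partners lie left of 0 and class I genes lie between 0.63 and 2.10.

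Genes with a pattern most like the class II sum over the 16 NEC clusters were found by Pearson's r of log2(CPM + 10) among 7902 genes with 200 or more UMIs, members and pathway genes apart. They were Bst1 (r = 0.90), an ADP-ribosyl cyclase of the cell surface, Tbc1d8 (0.89), Pglyrp1 (0.86), a peptidoglycan-binding protein, Zfp521 (0.84), a zinc finger protein, and Npc2 (0.82), a lysosomal sterol carrier. The clusters share 1 library, and r is a description here. Bst1 was at 164 CPM in HEV-like cells, 48.6 in the Htr2b cluster, 31.1 in venous-like cells and 0 in arterial-like cells, and at 86.3 CPM in TECs. Pglyrp1 was at 646 CPM in HEV-like, 41.3 in venous-like, 10.6 in arterial-like and 7.57 CPM in capillary-like cells, and at 88.7 CPM in TECs. Tbc1d8 and Zfp521 were not higher in TECs than in NECs, at 4.74 against 17.7 and 14.9 against 15.2 CPM.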

How the data were processed

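The deposited tables hold UMI counts per gene and barcode, which the authors made with Cell Ranger on mm10; the submitters' processing notes also name Seurat. Counts were used as deposited, in Python 3.11.15 with scipy 1.17.1. The members and lists were chosen with earlier results of these data known. Levels are summed UMIs in CPM. Intervals are exact at 95%: Poisson for levels, Clopper-Pearson for shares, conditional binomial for ratios. They treat UMIs as independent, although UMIs of 1 cell are not. They were tested on simulated counts drawn as independent, so that test did not cover this weakness. No p-value was computed. ECs were clustered in Seurat 5.3.0 (LogNormalize, 4000 variable genes without the members and pathway genes, 20 PCs, 20 neighbours, resolution 0.8). A cluster was named from a fixed marker list with at least 3 genes 2-fold higher and detected in 25% of its cells, more than any other list, and 1 of them among its 10 leading genes. Scrublet (scanpy 1.11.5) called 0 doublets in each library and so did not work; its scores served in 1 alternative. Gene rows were matched by symbol, and 3′ counts do not separate near-identical genes. Named are the members, up to 4 genes of each pathway group with the most UMIs in NECs, markers that check a group, and the 5 genes most alike. Other cell filters, scalings, depths and clusterings were tried. One leading gene of a cluster and a B cell gene are not reported here.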

Additional observations from a re-analysis of the deposited data

How the results depend on the processing

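Over 13 alternatives each, the ratio of TECs over NECs stayed above 1 for all 5 members, from 3.78-fold (H2-Aa without the comparison with Rhox5, Hmga2 and Krt8) to 46.6-fold (Cd74 without the top 1% of cells by class II UMIs); 39 of 65 values lay within the interval given. The causes of the others were not tested. Leaving out the top 1% drops cells by the measured class II UMIs themselves. It took out 49 NECs with 76.5% of the class II UMIs of NECs, but 2 TECs with 432 of 3590. A higher ratio for the class II sum was thus built into this alternative, so it cannot show whether the difference is stable. Apart from this alternative the highest value was 29.5-fold (Ciita without cells with an immune list UMI). As log2 ratios, Cd74, H2-Aa, H2-Ab1 and H2-Eb1 were 2.38, 1.92, 2.84 and 2.45 without the comparison with Rhox5, Hmga2 and Krt8, 3.52, 3.23, 4.14 and 3.68 with under 5% mitochondrial UMIs, 5.54, 4.23, 5.11 and 4.89 without the top 1% of cells, and 3.53, 3.15, 4.18 and 3.74 without B cell-marked cells. With 1 or more Cdh5 UMIs, Cd74 was 3.40 and H2-Ab1 4.002, and with 3 or more Cdh5 plus Pecam1 UMIs H2-Ab1 was 3.998. Without cells with a UMI of any immune list gene, Cd74, H2-Ab1, H2-Eb1 and Ciita were 4.21, 4.78, 3.77 and 4.88. That filter used 35 genes, among them Zbtb46 at 52.1 CPM in NECs and 14.4 CPM in TECs, and deeper cells meet it more easily. It left 231 of the 341 venous-like and 45 of the 89 HEV-like NECs. Thinned to 2000 UMIs, Cd74 was 3.90 and H2-Ab1 3.95, and as a mean over cells Cd74 was 4.13.

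The venous-like ratio was the least stable, at log2 1.79 (resolution 0.4), 2.16 (30 PCs), 0.89 (list genes kept among the variable genes), 0.75 (Cdh5 required), 0.81 (3 or more Cdh5 plus Pecam1 UMIs), 0.38 (under 5% mitochondrial UMIs), 1.71 (no immune list UMI), 1.00 (no B cell-marked cells), 2.40 (mean over cells), 2.34 (HEV-like cells left out of the others), 2.21 (thinned) and -0.28 (cells sorted by marker lists). The HEV-like ratio was log2 4.49 with list genes kept, 2.89 without the top 1% of cells, 4.55 without B cell-marked cells and 3.79 thinned; these alternatives, as all on HEV-like and B cell-marked cells, were chosen after seeing the data. The difference between TECs and NECs in cells with 2 or more of the 4 genes, 17.0 percentage points, was 11.3 without cells with an immune list UMI, 43.2 without thinning, 38.1 for 1 or more genes and 8.47 for 3 or more. The log2 ratio of NECs over Ptprc cells of their library, -6.44, was -6.75 without B cell-marked cells. Depth limits Ciita most, with 9 UMIs in NECs.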

Other observations

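Members were also seen in cells of the normal library outside the endothelium. Of 1155 cells with no Ptprc, Cdh5 or Pecam1 UMI, 64 held a class II UMI, 5.54% (4.29 to 7.02), against 4.64% of NECs, with a median of 7490 against 2976.5 UMIs per cell. Their class II sum was 35.2 CPM (31.8 to 38.9), with Cd74 at 19.1 CPM and no Ciita UMI. In 197 of these with Myh11 or Cspg4 and no Epcam UMI, it was 10.3 CPM (5.13 to 18.4), from 11 UMIs, 1 of them Cd74.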
